A study of Mus musculus with 4 samples.

Results

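The 10 genes described here belong to MHC class II antigen presentation and to the dendritic cells of skin: H2-Aa, H2-Ab1, H2-Eb1, H2-DMa, Cd74, Ciita, Cd207, Epcam, Fscn1 and Ccr7. They were listed by symbol, and each was found as the only symbol of exactly 1 probe set (a group of probes summarised to 1 level), among 19938 genes so named on the array. RNA of whole ear skin from 8-week-old female mice was hybridised to 4 arrays, 1 per group. The groups were Traf6f/f mice (here f/f, whose Traf6 gene is floxed) untreated, f/f mice given imiquimod (IMQ), Traf6EKO mice (here EKO, an epithelial knockout of Traf6) untreated, and EKO mice given IMQ. IMQ is a TLR7 agonist that provokes psoriasis-like inflammation in mouse skin, and 10 mg of a cream containing it was put on the ear each day for 2 days. TRAF6 is an adaptor that passes signals from Toll-like, IL-1 and IL-17 receptors to NF-kB. Neither the promoter that drove the deletion nor the mouse strain is stated in the sources used here. The series' design text gives n = 2, and whether RNA of several mice was pooled on an array is not stated. With 1 array per group no value has a replicate error, no difference between a pair of arrays was tested, and the number of arrays limits the precision.

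MHC class II molecules are dimers of an alpha and a beta chain that show peptides from ingested proteins to CD4 T cells. In the cell they are first held by the invariant chain, the product of Cd74, and H2-DM then helps exchange a remnant of that chain for a peptide. Their genes are switched on together by CIITA, a co-activator that does not bind DNA itself but joins factors already sitting on the X and Y boxes of each promoter. Langerhans cells, the dendritic cells of the epidermis, carry langerin (Cd207) and EpCAM, and dendritic cells that leave skin for lymph nodes follow the receptor CCR7 and build up the actin-bundling protein fascin (Fscn1).

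X and Y boxes can be read in the genes of the alpha chain H2-Aa and the beta chain H2-Eb1, printed here beside Fscn1. Levels of H2-Aa and H2-Eb1 were lower with IMQ, and that of Fscn1 was higher. H2-DMa was lower too, but its windows held none of the motifs marked below and are not printed. The class II windows printed are thus those that held an X box core and a Y box. Promoter windows from RefSeq (assembly GRCm38.p6) were read for 6 of the 10 genes. None was found for H2-Ab1, Ciita and Ccr7, and Cd74 was left out of this reading. Each sequence covers the 250 bases before the annotated start site, 5′ to 3′ on the gene's strand. The H2-Aa window is chr17:34287824-34288073 (minus strand), the H2-Eb1 window chr17:34305617-34305866 (plus strand) and the Fscn1 window chr5:142960105-142960354 (plus strand). Capitals mark 3 motifs searched on both strands and chosen after the windows had been read: GCAACT (a core of the X box), TGACGTCA (a cAMP response element, a form the X2 box can take) and CTGATTGG (a Y box). In the 3 windows printed, none of these matches overlaps another.
H2-Aa: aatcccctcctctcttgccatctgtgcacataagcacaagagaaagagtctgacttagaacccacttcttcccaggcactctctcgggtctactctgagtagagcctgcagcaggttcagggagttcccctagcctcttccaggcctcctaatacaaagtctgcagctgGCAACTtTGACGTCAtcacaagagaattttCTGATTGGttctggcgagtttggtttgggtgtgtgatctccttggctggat
H2-Eb1: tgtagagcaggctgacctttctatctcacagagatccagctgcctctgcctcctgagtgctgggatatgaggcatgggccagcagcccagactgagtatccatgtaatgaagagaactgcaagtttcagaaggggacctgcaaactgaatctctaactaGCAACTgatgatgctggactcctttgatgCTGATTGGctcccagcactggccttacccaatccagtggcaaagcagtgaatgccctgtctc
Fscn1: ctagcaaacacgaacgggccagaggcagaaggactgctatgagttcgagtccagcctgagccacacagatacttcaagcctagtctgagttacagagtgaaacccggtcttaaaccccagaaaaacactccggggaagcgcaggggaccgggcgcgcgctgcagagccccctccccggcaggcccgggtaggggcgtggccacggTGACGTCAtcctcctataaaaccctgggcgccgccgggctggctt

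In H2-Aa the X box core began 81 bases before the start site and the Y box 51 bases before it, with 24 bases between them. In H2-Eb1 they began 91 and 62 bases before the start site, with 23 bases between. An X box core followed on the same strand by a Y box within 40 bases occurred in 9 of 32817 promoter windows of this length (0.0274%). The beta chain gene H2-Eb2 was another of them, and the rest were Aldh4a1, Gstz1, Mrps9, Narf, Tigd3 and Ttll5, which are not class II genes. Cd74 and H2-DMa, which were also lower with IMQ, were not among the 9. The motifs were chosen after the windows of these genes had been read, so this share is a description only. Singly the motifs were more common, with the Y box in 3.82%, the X box core in 9.01% and the cAMP response element in 1.55% of the windows. The last was found in H2-Aa (74 bases before the start site) and in Fscn1 (45 bases before it). The windows of H2-DMa, Cd207 and Epcam held none of the 3 motifs, which says only that these letters are not in those windows.

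Levels below are log2 values of the deposited, RMA-normalized arrays, in which a difference of 1 is 2-fold. Array medians over all probe sets lay between 6.52 and 6.57, and arrays correlated at 0.981 to 0.995 across probe sets. A gene was counted as above the floor in a comparison when it reached the median of all named genes (6.93 to 6.98) on at least 1 of its arrays. Skin was recognisable by its keratins, since 12 of 13 keratinocyte and follicle epithelium markers were above the floor on all 4 arrays. Traf6 itself was at 9.51 untreated and 9.30 with IMQ in f/f skin, and at 9.65 untreated and 9.35 with IMQ in EKO skin. Whole ear holds non-epithelial cells, and where its probes lie with respect to the deleted exons is not stated, so this level does not check the genotype labels. Genotype differences are between arrays labelled EKO and f/f.

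Genes of the class II molecule were lower with IMQ in both genotypes. H2-Aa, an alpha chain of the peptide-binding dimer, was at 11.60 untreated and 10.63 with IMQ in f/f skin, and at 11.42 untreated and 10.80 with IMQ in EKO skin. The 2 IMQ arrays were the low ones and the 2 untreated arrays the high ones. This made the gene 1.95-fold lower with IMQ in f/f and 1.54-fold lower in EKO. H2-Ab1, the beta chain that pairs with it, was at 11.32, 10.39, 11.31 and 10.59 on the arrays in the same order. The untreated arrays of the genotypes were nearly level, 0.01 apart, and the gene was 1.90-fold lower with IMQ in f/f and 1.64-fold lower in EKO.

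H2-Eb1, the beta chain of the second class II dimer, was at 10.94 untreated and 10.12 with IMQ in f/f skin, and at 10.84 untreated and 10.24 with IMQ in EKO skin. Again each IMQ array lay below each untreated one, by 1.76-fold within f/f and 1.51-fold within EKO. The gene of the alpha chain of this dimer, H2-Ea, was below the floor on every array, at 4.66, 4.61, 4.57 and 4.59 in the same order. Whether the dimer was made was not tested. Class II genes differ in sequence between mouse strains, so a level may also depend on how well a strain's allele binds the probes. Cd74, the invariant chain, was at 11.57, 10.72, 11.42 and 10.88 in the same order. Its IMQ difference was -0.84 in f/f (1.79-fold lower) and -0.55 in EKO (1.46-fold lower).

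H2-DMa, the alpha chain of the peptide-exchange factor, differed less. It was at 9.47 untreated and 8.87 with IMQ in f/f skin, and at 9.52 untreated and 9.04 with IMQ in EKO skin. The IMQ arrays were again the low ones, 1.52-fold below untreated skin in f/f and 1.40-fold in EKO. Ciita, the co-activator of all of these genes, was below the floor on every array, at 6.76, 6.40, 6.73 and 6.50 in the same order. Its differences of -0.36 in f/f and -0.22 in EKO had the sign of the class II genes, but near background a difference is compressed.

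**Figure D1:**
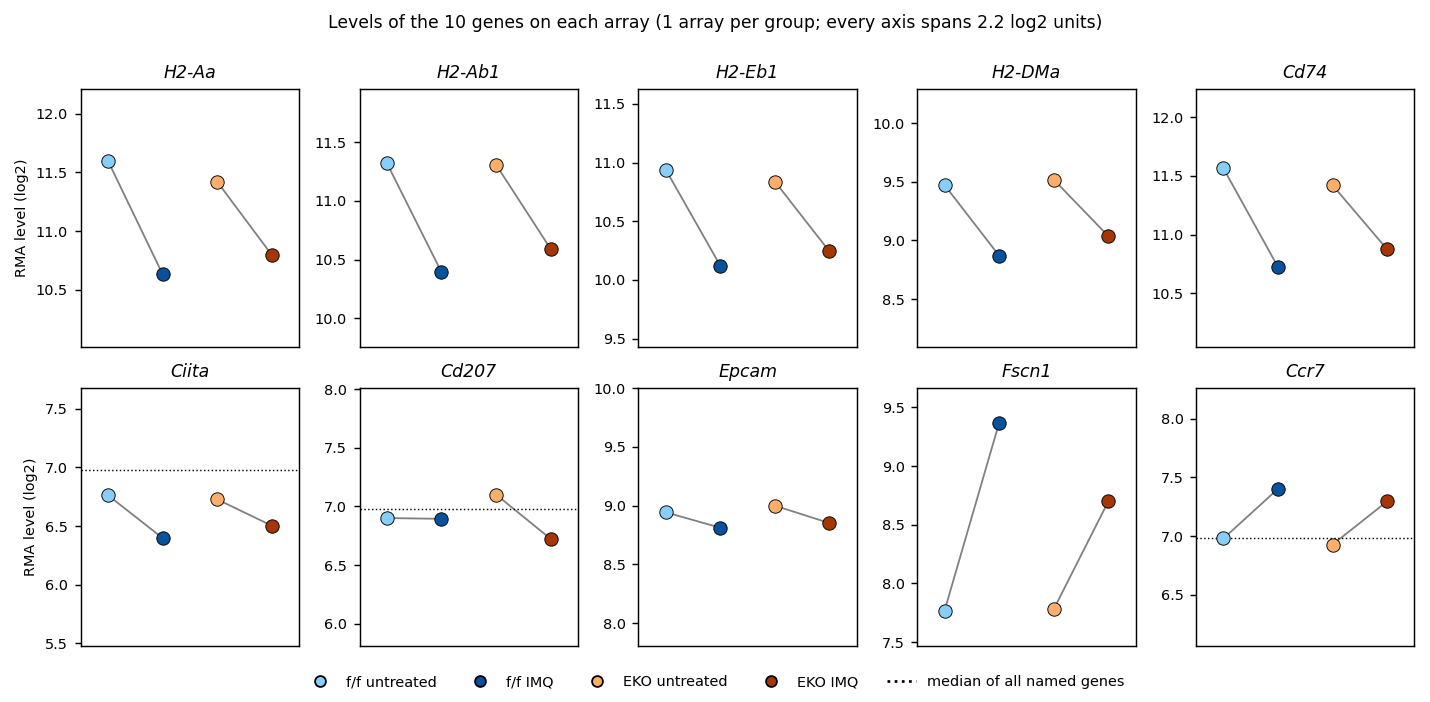
Level (RMA, log2) of each of the 10 genes on the 4 arrays; points are single arrays, grey lines join untreated and IMQ skin of a genotype, and each vertical axis spans 2.2 log2 units. The dotted line is the highest of the 4 array medians of named genes (6.98). H2-Aa, H2-Ab1, H2-Eb1, H2-DMa, Cd74 and Ciita are lower on both IMQ arrays, and Fscn1 is higher, at 9.37 in f/f and 8.70 in EKO.

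Both Langerhans cell genes differed less with IMQ than the 5 class II genes above the floor. Cd207, the langerin gene, was at 6.90 untreated and 6.89 with IMQ in f/f skin, and at 7.10 untreated and 6.72 with IMQ in EKO skin. It was above the floor in EKO untreated skin only and spanned 0.38 over the 4 arrays, so little can be read from it. Its IMQ difference was -0.01 in f/f and -0.38 in EKO. Epcam, which hair follicle and other epithelia also express, was at 8.94, 8.81, 9.00 and 8.85 in the same order. The span of 0.19 over the arrays was the smallest of the 10 genes, with both IMQ arrays slightly below both untreated ones.

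Fscn1 and Ccr7, listed here for migrating dendritic cells, were higher with IMQ. Fscn1 was at 7.77 untreated and 9.37 with IMQ in f/f skin, and at 7.78 untreated and 8.70 with IMQ in EKO skin. The untreated arrays were level and both IMQ arrays were higher, by 3.03-fold in f/f and 1.89-fold in EKO. Fascin is also made by endothelial and other cells, and which cells held the transcript here was not tested. Of the 8 measured endothelial and Schwann markers 7 were lower with IMQ in each genotype (median -0.44 for f/f, -0.26 for EKO). Tek was at -0.83 and -0.38, Pmp22 at -0.64 and -0.37, and Emcn at -0.55 and -0.40. A lower marker level does not tell how much Fscn1 a cell makes. Ccr7, the receptor that guides cells to lymphatic vessels and lymph nodes, was at 6.98, 7.40, 6.93 and 7.30 in the same order. Only the IMQ arrays were above the floor, and the gene was 1.34-fold higher with IMQ in f/f and 1.29-fold higher in EKO.

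With IMQ in f/f, 8 of the 10 genes were above the floor and 1 of them, Fscn1, was at least 2-fold higher, against 3.82% of all 10548 genes above the floor. None was at least 2-fold lower, against 2.63%, although H2-Aa and H2-Ab1 reached 2-fold after quantile or cyclic loess scaling. At a 1.5-fold threshold 5 were lower (H2-Aa, H2-Ab1, H2-Eb1, H2-DMa and Cd74), where the share of all genes was 9.53%, and 1 was higher (10.2%). In EKO 9 of the 10 genes were above the floor and 0 passed 2-fold in either direction, where 0.671% of all genes were higher and 0.0972% lower. At 1.5-fold H2-Aa, H2-Ab1 and H2-Eb1 were lower, 3 genes against a share of 0.807% of all genes, and Fscn1 was higher (2.66%). Over all 10 genes the median IMQ difference was -0.48 in f/f and -0.43 in EKO, while the median of all named genes was -0.01 in each. The 6 class II genes had a median of -0.83 in f/f and of -0.57 in EKO.

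In EKO, the IMQ difference was a large part of that in f/f for the class II genes. It came to 64.6% of the f/f difference for H2-Aa, 77.3% for H2-Ab1, 72.7% for H2-Eb1, 79.9% for H2-DMa and 64.9% for Cd74. For Fscn1 it came to 57.4%. There were 640 other genes above the floor whose f/f difference lay in the range of these 5 class II genes (-0.96 to -0.60). Their median was 42.0%, with quartiles of 29.2% and 53.3%. All 5 class II genes lay above that upper quartile. However, the 640 genes were chosen by their f/f difference, which is also the divisor of these percentages. The 5 class II genes had been listed by symbol. Genes chosen by a difference on one pair of arrays tend to differ less on another pair, so the contrast may be partly built in. Muscle markers such as Ckm and Tnnt3 also fell in this f/f range. The contrast therefore cannot show that the class II difference was unusually well kept in EKO. The 5 genes were not drawn independently of each other, since they can share both a regulator and a cell source, and no test was made.

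**Figure D2:**
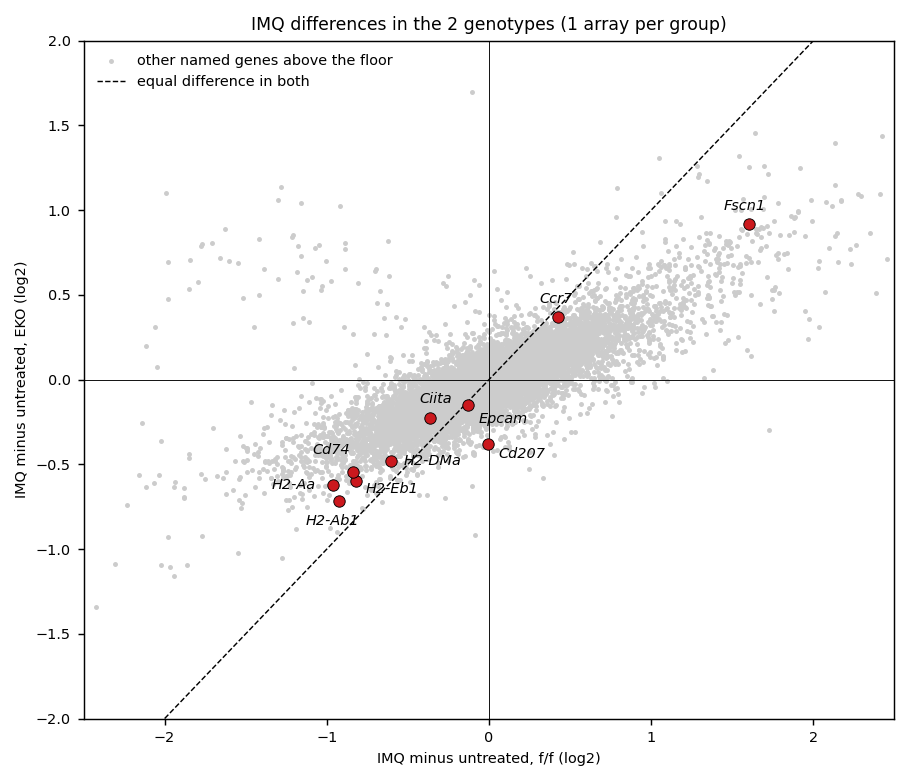
IMQ minus untreated (log2) in f/f on the horizontal and in EKO on the vertical axis; red points are the 10 genes, grey points are 10572 other named genes above the floor on any array, the 65 genes beyond the axes are not drawn, and the dashed line marks equal differences. The class II genes above the floor lie between -0.96 and -0.60 in f/f and between -0.72 and -0.48 in EKO, and Fscn1 lies at 1.60 and 0.92.

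Without IMQ the genotypes differed little in these genes. Cd207 was higher in EKO by 0.20, H2-Aa was at -0.18 and Cd74 at -0.14 (EKO minus f/f, log2), and the other 7 genes lay between -0.10 and 0.06. No gene of the 10 passed 2-fold, where 0.0686% of all genes above the floor were higher and 0.324% lower in EKO. The median absolute difference of all genes above the floor was 0.10, so most of these values are of the usual size between the 2 untreated arrays.

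With IMQ, the 6 class II genes were all higher in EKO than in f/f, by 0.11 (Ciita) to 0.20 (H2-Ab1). Fscn1 was lower in EKO by 1.59-fold, and it was the one gene of the 10 past 1.5-fold in the lower direction, against 2.61% of all genes. At 2-fold 0 of the 10 genes passed in either direction, where 0.418% of all genes were higher and 0.875% lower. The median absolute difference of all genes above the floor was 0.14, so the class II values are close to what an average gene showed between these 2 arrays. Cd207 was at -0.17, Ccr7 at -0.11 and Epcam at 0.04.

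The difference of the IMQ differences (EKO minus f/f) was 0.34 for H2-Aa, 0.30 for Cd74, 0.22 for H2-Eb1, 0.21 for H2-Ab1, 0.14 for Ciita and 0.12 for H2-DMa. Positive values here mean that the IMQ difference of the class II genes was smaller in EKO. Fscn1 was at -0.68, Cd207 at -0.37, Ccr7 at -0.06 and Epcam at -0.02. At 2-fold 0 of the 10 genes passed, where 1.06% of all genes were higher and 1.18% lower, and at 1.5-fold Fscn1 was the 1 gene lower, against 4.63%. All 4 arrays enter these values, so they are not separate from the comparisons above.

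**Figure D3:**
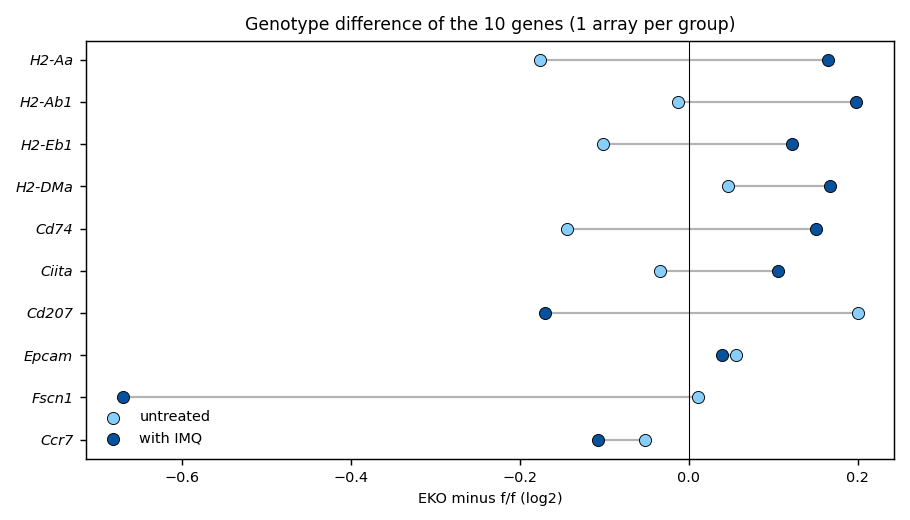
EKO minus f/f (log2) for each of the 10 genes, in untreated skin (light points) and with IMQ (dark points), each from 1 array per group. The class II genes lie between -0.18 and 0.05 untreated and between 0.11 and 0.20 with IMQ, and Fscn1 goes from 0.01 to -0.67.

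Other genes of the class II pathway did not share this pattern as a list. Of 17 measured (19 listed), 7 were higher and 10 lower with IMQ in f/f (median -0.05), and 7 higher and 10 lower in EKO (median -0.02), with 0 past 2-fold. Lgmn, a lysosomal protease that processes antigen, had IMQ differences of 0.64 in f/f and 0.38 in EKO. Rfx5, a subunit of the factor that binds the X box, was at -0.54 in f/f and -0.00 in EKO. Marchf8, a ubiquitin ligase that can mark class II molecules for removal, was at -0.62 in f/f and -0.16 in EKO. The protease Ctss, which cuts the invariant chain, was at 0.15 and -0.02, and Ifi30, a thiol reductase of the same compartment, at -0.02 and 0.03. H2-Oa and H2-Ob, the chains of H2-DO, which restrains H2-DM, were below the floor on every array. H2-DMb1 and H2-DMb2 are listed together for 1 probe set and were not used.

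Interferon-gamma can induce Ciita, and genes of its pathway moved in both directions with IMQ. Of 17 measured (20 listed), 5 were higher and 12 lower in f/f (median -0.13), and 9 higher and 8 lower in EKO (median 0.04). Ifng was below the floor on every array, at 5.58, 5.59, 5.58 and 5.55 in the order used above. The chemokine Cxcl10 was at -0.11 in f/f and 1.70 in EKO, the only gene of this list past 2-fold with IMQ. The related Cxcl9 was at -0.10 and 0.59, and the GTPase Iigp1 at -0.61 and 0.11. The receptor chain Ifngr1 was at -0.47 and -0.42, and its partner Ifngr2 at 0.27 and 0.06. Without IMQ, Cxcl10 (-1.17) and Cxcl9 (-1.48) were below f/f in EKO by more than 2-fold, and Iigp1 was at -0.84. Between the same untreated arrays 5 of the 6 class II genes were lower in EKO, where 50.8% of all named genes were lower. H2-Aa was at -0.18, Cd74 at -0.14, H2-Eb1 at -0.10 and H2-DMa at 0.05. H2-Ab1 (-0.01) changed sign under a scaling, and Ciita (-0.03) was below the floor on every array. Whether these differences are linked was not tested.

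Among 24 measured genes of conventional and plasmacytoid dendritic cells, 7 were higher and 17 lower with IMQ in f/f (median -0.15), and 9 higher and 15 lower in EKO (median -0.15). The 4 genes more than 2-fold lower in f/f were the lectins Cd209a (-2.42), Cd209d (-1.97) and Mgl2 (-1.94) and the transcription factor Irf4 (-1.04). The 3 lectins were also the genes past 2-fold in EKO, at -1.34 (Cd209a), -1.11 (Cd209d) and -1.16 (Mgl2). Clec10a, a lectin related to Mgl2, was at -1.47 in f/f and -0.83 in EKO but below the floor on every array. Dermal macrophages carry some of these lectins too. Other genes of the list were higher: Clec4a2 was at 0.66 in f/f and 0.64 in EKO. Bst2 was at 0.41 in f/f and -0.25 in EKO. The defining dendritic genes Itgax, Flt3 and Zbtb46 were below the floor on all 4 arrays, so the list rests on few measured genes, 11 of 24 being above the floor for IMQ in f/f.

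Langerhans cell genes moved in both directions. Of 24 measured (25 listed), 13 were higher and 11 lower with IMQ in f/f (median 0.04), and 12 higher and 12 lower in EKO (median 0.00). The integrin Itgam, which neutrophils and monocytes also carry, differed by 1.08 in f/f and 0.94 in EKO, and Cd24a, which keratinocytes also express, by 1.06 and 0.45. Itgb6, an epithelial integrin that activates TGF-beta, was at 0.72 in f/f and -0.01 in EKO. The receptor Csf1r, on which Langerhans cells depend, was at -0.50 and -0.25, and its skin ligand Il34 at -0.24 and -0.26. Ahr, the aryl hydrocarbon receptor, was at -0.71 and -0.44.

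Of 21 measured genes of co-stimulation and dendritic maturation (23 listed), 14 were higher and 7 lower with IMQ in f/f (median 0.09), and 12 higher and 9 lower in EKO (median 0.03). Ccl20, a chemokine for Langerhans cell precursors and IL-17-producing T cells that keratinocytes make, was higher by 3.19 in f/f and 0.96 in EKO. Cd274, which encodes PD-L1, was at 1.02 and -0.02, and Cd80, a ligand of CD28, at 0.90 and 0.24. Ccl19, a ligand of CCR7, was at 0.74 and 0.20. Among the genes of this list that were lower with IMQ, Cd200 was at -0.56 and -0.38. Ccl17 was at -0.53 and -0.49, and Socs2 at -0.40 and -0.27. The list therefore did not move in 1 direction. Of the 21 genes, 20 were lower in EKO than in f/f without IMQ (median -0.09) and 18 with IMQ (median -0.20). Of all named genes, 50.8% were lower without IMQ and 52.4% with IMQ. Only 9 of the 21 were above the floor without IMQ and 12 with IMQ, and each comparison rests on 1 pair of arrays. Their difference of the IMQ differences was split, 8 higher and 13 lower (median -0.05).

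The arrays read whole ear, so fewer cells of a type and less RNA per cell cannot be told apart. Markers of other cells that carry class II molecules were set beside the 10 genes. Of 15 macrophage markers 10 were lower with IMQ in f/f (median -0.34), led by Cd163 (-1.14) and Mertk (-0.97), and 9 in EKO (median -0.02), while Cd14 was at 0.85 and 0.02. The mean level of the macrophage list was 8.32 untreated and 8.13 with IMQ in f/f skin, and at 8.10 untreated and 8.08 with IMQ in EKO skin. The 7 measured B cell markers, Cd79a and Ms4a1 among them, were below the floor on all 4 arrays. Of 7 T cell markers, 2 of which were above the floor on all 4 arrays, 4 were lower in f/f and 5 in EKO (medians -0.15 and -0.17). Cd3g was at -1.24 and -0.77, Cd3e at -0.44 and -0.17, and Cd5 at 0.25 and 0.39.

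Markers of other tissue layers also moved with IMQ. The 10 muscle markers were all lower in f/f (median -0.92) and in EKO (-0.26), as were the 10 adipocyte markers (-1.32 and -0.40). Among them Actn3 was at -1.54 and -0.33, Pvalb at -1.44 and -0.63, and Myh2 at -1.06 and -0.28 in muscle, and Lep at -2.02 and -1.09, Adipoq at -1.94 and -0.60, and Retn at -1.75 and -0.58 in fat. Keratinocyte and follicle epithelium markers were higher at a median of 0.56 in f/f and 0.06 in EKO, with Cdh3 at 1.35 and 0.50, Krt17 at 1.18 and 0.92, and Krt15, a basal and bulge keratin, at -1.94 and -0.63. Mean levels of the epithelial list were 10.52, 10.85, 10.59 and 10.77 in the order used above, and those of the muscle list 11.11, 10.09, 10.91 and 10.60. The part of such shifts in make-up in the values of the class II genes was not tested.

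**Figure D4:**
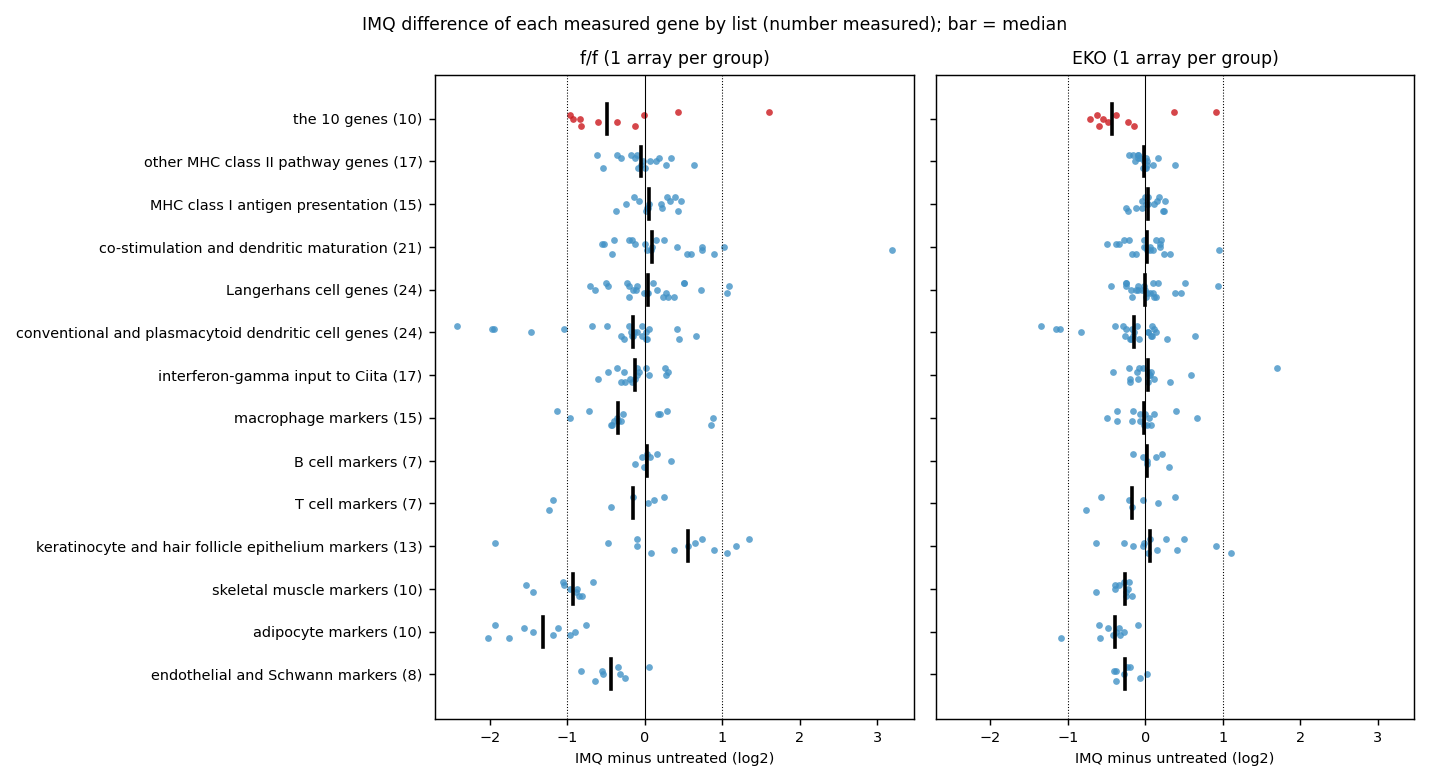
IMQ minus untreated (log2) of every measured gene of each list, in f/f (left) and EKO (right); points are genes, bars are list medians, and dotted lines mark 2-fold. The 10 genes have medians of -0.48 and -0.43, muscle markers -0.92 and -0.26, and adipocyte markers -1.32 and -0.40.

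The genes whose profile over the 4 arrays was nearest to the mean of H2-Aa, H2-Ab1, H2-Eb1 and Cd74 were Spock2, Hsd17b11, Asb14, Fmod and Colec12. Likeness was the Euclidean distance between log2 profiles centred on their own mean, over 4 arrays and 10637 genes above the floor. The distances of the 5 genes ran from 0.02 for Spock2, a matrix proteoglycan gene, to 0.09 for Colec12, a scavenger receptor gene. Those of the 4 genes that made up the mean ran from 0.05 (H2-Eb1) to 0.10 (H2-Ab1), and H2-DMa lay at 0.24. With 4 points a profile of this shape is easily matched, and Fmod encodes a matrix protein of fibrous tissue.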

How the data were processed

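Whole-ear RNA was read on Affymetrix Mouse Gene 1.0 ST arrays, per the labels' protocols. The authors deposited log2 RMA values (background-corrected, quantile-normalized and summarised per probe set), per the submitters' processing notes; their range, 2.58 to 13.8, is that of a log2 scale. No source used here gives the RMA version or annotation. Such scaling would hide a shift shared by most genes.

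Of 35556 probe sets, 21789 carried 1 symbol in the platform annotation, 1621 several and 12146 none listed; those with 1 were used, the one with the highest mean standing for a gene. Groups came from sample titles. Log2 differences were computed in Python 3.11.15 (numpy 2.4.6, pandas 2.3.3) for 5 comparisons, and counts use 2-fold and 1.5-fold. The call step was tested on simulated data. Alternatives were array-median, quantile and cyclic loess scaling (limma 3.58.1, R 4.3.3), mean probe sets, no floor and 1.5-fold. From each list the 3 largest differences above the floor (none for B cell markers) were named, and further genes (Ctss, Ifi30, H2-Oa, H2-Ob, H2-Ea, Ifng, Csf1r, Il34, Ahr, Ccl19, Irf4, Clec10a, Itgax, Flt3, Zbtb46, Cd79a, Ms4a1, Ifngr1, Ifngr2, B2m, Tap1, Tap2, H2-M3 and Nlrc5) were named after their values were seen. Ccl17, Cd200, Socs2, Clec4a2 and Bst2 were also named after their values were seen. The members and lists were chosen with earlier results of these data known.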

Additional observations from a re-analysis of the deposited data

Results flagged for a closer look

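For 7 of the 10 genes the difference between EKO and f/f had opposite signs on the untreated and the IMQ arrays, as it had for 51.5% of the 10646 genes above the floor on any array. This difference was not tested, since each group holds 1 array. The genotype difference went from lower to higher in EKO for H2-Aa, Cd74, H2-Eb1, H2-Ab1 and Ciita, with changes of 0.34, 0.30, 0.22, 0.21 and 0.14 (log2). It went from higher to lower for Cd207, a change of -0.37, and for Fscn1, a change of -0.68. The untreated values of H2-Ab1 (-0.01) and Fscn1 (0.01) lay near 0 and changed sign under some scalings.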

How the results depend on the processing

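Under quantile normalization and under cyclic loess, 2 of the 10 genes were at least 2-fold lower with IMQ in f/f, against 0 as deposited. These were H2-Aa (-1.09 and -1.04 under the respective scaling) and H2-Ab1 (-1.01 under quantile normalization and just past 2-fold under cyclic loess), while Cd74 was at -0.96 under quantile normalization. The 1.5-fold threshold gave 5 genes lower in f/f, 3 lower and 1 higher in EKO, 1 lower in EKO against f/f with IMQ and 1 lower for the difference of the differences, by its own construction. The other counts and all 5 medians moved by less than 1.5 times or 0.1 (log2). Of 50 single values 4 changed sign under a scaling, all of them near 0 (H2-Ab1 and Fscn1 untreated, Cd207 with IMQ in f/f, and Epcam in the difference of the differences). The largest shift of any value was 0.12, and that of the median of all genes 0.05. The 1.5-fold threshold moved the share of higher among all calls by -10.6 points for IMQ in EKO (274 higher, 83 lower, against 69 and 10), by 20.4 points for EKO against f/f untreated (66 and 108, against 7 and 33) and by 11.5 points for EKO against f/f with IMQ (209 and 268, against 43 and 90). No paired analysis was possible because each group holds 1 array, and no array could be left out. Ciita and mostly Cd207 lay below the floor, where signal over background limits what a difference can show.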

Other observations

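MHC class I presentation, by which most cells show their own peptides to CD8 T cells, was measured in the same arrays, and its genes moved in both directions with IMQ. Of 15 measured genes of 18 listed, 11 were higher and 4 lower in f/f (median 0.06), and 9 were higher and 6 lower in EKO (median 0.03), with 0 past 2-fold. The endoplasmic reticulum chaperone Calr was at 0.47 in f/f and 0.25 in EKO, and the proteasome activator subunits Psme1 and Psme2 were at 0.42 and 0.39 in f/f and 0.22 and 0.04 in EKO. B2m, the light chain of class I, was at -0.14 and -0.01, the peptide transporter subunits Tap1 and Tap2 at -0.07 and -0.25 in f/f and -0.04 and 0.00 in EKO, and H2-M3, a non-classical class I gene, at -0.37 and -0.22. Nlrc5, the co-activator of class I genes that is related to Ciita, was at -0.25 and -0.20. In EKO against f/f, 12 of the 15 class I genes were lower without IMQ (median -0.06) and 13 with IMQ (median -0.17), where 44.9% and 50.9% of all genes above the floor were lower. The 6 class II genes were lower in 5 cases without IMQ and in 0 with IMQ. Their differences were small, from -0.18 to 0.05 without IMQ and from 0.11 to 0.20 with IMQ. The median absolute difference of all genes above the floor was 0.10 and 0.14. The difference between the lists was not tested. H2-K1 and H2-D1 share probe sets with near-identical relatives and were not used.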
